A study of Mus musculus with 45 samples.

Results

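Small leucine-rich proteoglycans, microfibril proteins and fibronectin are secreted parts of the extracellular matrix, and 9 of their genes are described here in mouse neural progenitor cells undergoing reprogramming to pluripotency. The genes are Fmod, Prelp, Bgn, Dcn and Lum (small leucine-rich proteoglycans), Mfap5 and Fbn1 (microfibrils), Ccdc80 and Fn1, and all 9 are among the 23575 genes of the deposited gene table. They were chosen by name, with their measured CPM in view, for 3 contrasts: OKMS against OKS cells by day, wild-type cells in the reprogramming medium, and stem cells. Values of those contrasts are therefore given as a description, without a test.

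The progenitors came from an Oct4-GFP embryonic stem cell line (O4G, itself derived from line R1) and carried a doxycycline-inducible set of factors, OKMS (Oct4, Klf4, Myc, Sox2) or OKS (the same without Myc). The genotype labels of both add Luciferase-AS, an element whose role they do not state, and wild-type (WT) progenitors carried neither set. Uninduced cells were grown in progenitor medium on Geltrex. Induced cells and the WT medium control were moved to gelatin and to FBS-LIF, a serum medium with leukaemia inhibitory factor, with doxycycline, so medium, coating and doxycycline cannot be told apart. R9 libraries cover days 2, 4, 6, 10, 14 and 20 of both systems. R10 libraries cover days 2, 4, 6, 10 and 18 of OKMS and days 2, 6 and 18 of OKS. Each induced condition is 1 library per chemistry. WT cells at day 2 of serum are 1 R9 and 2 R10 libraries, and uninduced progenitors are 4 R9 and 4 R10 libraries. Late cultures in 2i-LIF (LIF together with inhibitors of GSK3 and MEK) are 5 libraries, moved at day 6 for R9 and on a day the labels do not give for R10. The labels list no doxycycline in 2i-LIF, so medium and doxycycline cannot be told apart there either. Stem cells (WT, lines O4G, R1 and R1-Clone3, in 2i-LIF) are 2 R9 and 7 R10 libraries. R9 libraries are direct cDNA of poly(A)-enriched RNA, and R10 libraries are PCR cDNA of total RNA. Nothing in the labels says that replicates were separate cultures, so p-values measure the spread between these samples, which may be technical.

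Small leucine-rich proteoglycans have a curved core of leucine-rich repeats that binds collagen fibrils and growth factors, and most carry sugar chains: chondroitin or dermatan sulfate on decorin and biglycan, keratan sulfate on lumican and fibromodulin. Fibrillin-1 polymerises into microfibrils, which scaffold elastin and hold latent TGF-beta near the cell surface, and microfibril-associated proteins decorate them. Fibronectin is assembled by integrins into fibrils on which much of the other matrix is laid down. Mesenchymal cells such as fibroblasts are the best known source of most of these proteins.

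The Fn1 transcript is known for cassette exons, and the exon shares reported further on turn on 2 of them and on 1 exon of Mfap5, so their sequences are shown here. They were read from GENCODE M21 transcripts (GRCm38, the mm10 coordinates of the deposited transcripts), 5′ to 3′ on the gene's strand. The Fn1 exon of 270 bases (chr1:71603660-71603929, minus strand) encodes an extra fibronectin type III repeat called EIIIA. The Fn1 exon of 273 bases (chr1:71613763-71614035, minus strand) encodes the repeat called EIIIB. The Mfap5 exon of 24 bases lies at chr6:122524487-122524510, plus strand.
Fn1 EIIIA exon: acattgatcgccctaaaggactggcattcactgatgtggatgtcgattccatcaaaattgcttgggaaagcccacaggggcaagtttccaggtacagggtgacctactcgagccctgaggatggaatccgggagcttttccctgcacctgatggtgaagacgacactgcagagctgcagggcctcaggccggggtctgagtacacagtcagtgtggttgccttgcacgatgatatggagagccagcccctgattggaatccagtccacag
Fn1 EIIIB exon: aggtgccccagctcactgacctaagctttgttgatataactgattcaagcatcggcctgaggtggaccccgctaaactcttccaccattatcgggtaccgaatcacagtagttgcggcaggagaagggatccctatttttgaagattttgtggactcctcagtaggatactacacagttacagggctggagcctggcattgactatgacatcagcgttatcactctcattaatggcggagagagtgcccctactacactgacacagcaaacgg
Mfap5 exon of 24 bases: ctggtgacaaaaatgctactgcag

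Fmod and Prelp differed most in CPM between the systems and lie next to each other on chromosome 1, and for that reason 250 bases upstream of a RefSeq start of each (GRCm38.p6) are shown. The RefSeq gene of Prelp reaches further upstream, to position 133930102, so its window belongs to the start that the promoter table gives and not to the outermost one. The Fmod window is chr1:134037004-134037253, plus strand, and the Prelp window is chr1:133921402-133921651, minus strand. Capitals mark the letters of a SMAD box (CAGAC, on either strand) and of an E-box (CANNTG).
Fmod promoter: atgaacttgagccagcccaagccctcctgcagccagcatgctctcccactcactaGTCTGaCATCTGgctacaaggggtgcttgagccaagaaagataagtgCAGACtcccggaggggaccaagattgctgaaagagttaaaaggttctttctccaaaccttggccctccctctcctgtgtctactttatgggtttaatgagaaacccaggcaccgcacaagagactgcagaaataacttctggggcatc
Prelp promoter: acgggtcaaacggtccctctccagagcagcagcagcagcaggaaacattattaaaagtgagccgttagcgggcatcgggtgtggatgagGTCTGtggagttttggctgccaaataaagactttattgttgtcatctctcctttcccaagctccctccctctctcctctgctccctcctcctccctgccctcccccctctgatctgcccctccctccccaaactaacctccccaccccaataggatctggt

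Both strands were searched for 5 motifs, chosen after the data were seen. The Fmod window held SMAD box letters in 2 places, starting at -195 and -148 from the start site, and an E-box at -189 that overlaps neither. The Prelp window held them once, at -161, and no E-box. Of 32851 RefSeq promoter windows of the same length, 42.2% held the SMAD box letters and 66.2% the E-box letters, so both matches are common. Neither window held the AP-1 letters TGANTCA (found in 6.75% of windows) or the TEAD letters GGAATG (12.6%). The core promoter letters TATAAA, present in 12.4% of windows, were also in neither. The promoter table matched 4 of the 9 genes, the other two being Bgn, with an E-box at -102 and no SMAD box letters, and Fbn1, with neither. Of the summed Fmod TPM, 94.5% belonged to deposited transcripts that begin over 200 bases downstream of the GENCODE start, and the most abundant one began 244 bases downstream. For Prelp, 81.1% of TPM began within 50 bases of it.

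Library depth ran from 448250 to 1391635 gene reads over the 22 R9 libraries and from 567129 to 4245818 over the 23 R10 libraries. A floor of 3 reads stands for the limit of a count of 0, and it covers counting error only, since PCR reads carry no molecular identifiers. Replicate libraries of 1 group differed by 2.46 to 33.3 chi-square units per gene, so none was a duplicate. The R1 stem cell library without an n number stood apart from the other 2 R1 libraries of R10 (28.0 and 29.1 per gene, against 3.05 between those). Pluripotency markers (Nanog, Esrrb, Zfp42, Dppa5a, Tdh, Fbxo15) summed to 10210 to 12858 CPM in stem cells and at most 30.4 CPM in progenitors, and 9 neural progenitor markers to 5102 to 7519 CPM in progenitors. Between matched R9 and R10 libraries of 8 conditions, Fmod was lower in R10 by a median log2 difference of -1.06, Mfap5 by -1.06 and Prelp by -0.76 (median over all genes 0.04). Levels are therefore compared within a chemistry. Gene levels are CPM (reads of a gene scaled to the depth of its library), and a log2 difference is of log2(CPM + 1), which understates the change of low genes.

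In induced serum cultures the proteoglycan and microfibril genes stood higher in OKS than in OKMS cells on most days, with wide gaps for Mfap5, Fmod and Prelp from day 4 to day 14. A gene was counted as differing between 3 days of each system where its mean log2 difference was at least 1 and the libraries did not overlap, a rule that 22.2% of 14659 genes met over R9 days 2 to 6 (11.6% with OKMS lower, 10.5% higher). There Fmod, Prelp, Dcn, Mfap5 and Ccdc80 met it, 5 of the 8 members that passed the filter of 1 CPM in 3 libraries, all lower in OKMS. Over days 10 to 20 it was 2 of 8 (Mfap5 and Fbn1), against 6.2% of 15126 genes (3.27% lower, 2.93% higher). The median member difference was -2.29 early (all genes -0.13) and -2.75 late (all genes -0.03). The list was drawn up with this contrast in view, so nothing is read from these shares. In bulk RNA, fewer cells of a type and less RNA per cell cannot be told apart. With day 20 left out, 7 members met the rule over the late days, and so did 5621 genes in place of 938. Fewer libraries per arm make it easier to have no overlap, and leaving out either other late day also raised the gene count. No share of tested genes is given for this setting, so nothing is read from the 7.

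**Figure D1:**
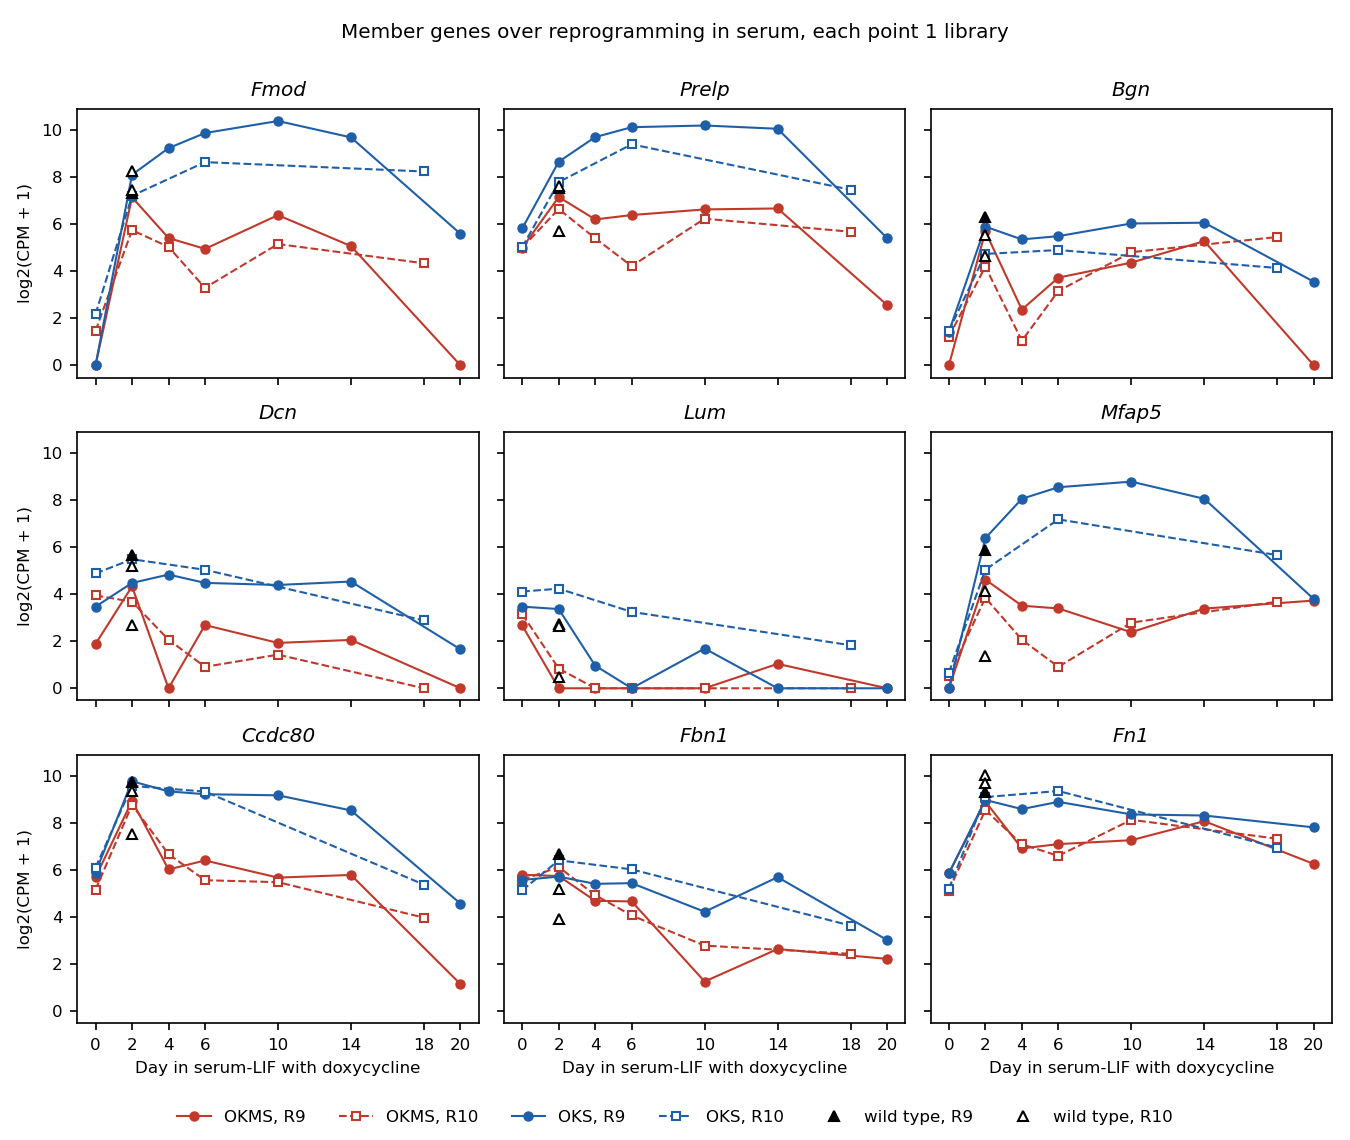
log2(CPM + 1) of each of the 9 genes (vertical axis) against the day in serum-LIF with doxycycline (horizontal axis), where day 0 is the uninduced factor-carrying progenitor in its own medium. Each point is 1 library (red OKMS, blue OKS, black triangles wild type; filled R9, open R10). The blue lines of Fmod, Prelp and Mfap5 run well above the red ones from day 4 to day 14, and the R9 lines of Fn1 start together on day 2 (487 and 509 CPM) and stand apart on days 4 and 6.

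Fmod encodes fibromodulin, a keratan sulfate proteoglycan that binds fibrillar collagen. In OKS R9 libraries it stood at 275 CPM on day 2, 606 on day 4, 947 on day 6, 1350 on day 10, 832 on day 14 and 47.4 on day 20. In OKMS R9 libraries it stood at 141, 41.7, 30.0, 83.0, 32.7 and 0 CPM on the same days. OKS was thus higher on every day, by 1.95 times on day 2 and 31.5 times on day 6, and the libraries of day 20 were the lowest of both systems. The OKMS library of day 20 had no Fmod read, which allows up to 3.69 CPM. R10 libraries had the same order, with 53.0 CPM in OKMS and 148 in OKS on day 2, 8.83 and 401 on day 6, and 19.3 and 303 on day 18. The uninduced parents held 0 CPM in R9 and 1.76 and 3.51 CPM in R10. These rest on 0 to 6 reads, too few to compare the systems before induction.

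Prelp, whose proline- and arginine-rich core protein binds collagen and basement membrane heparan sulfate, had a similar course. OKS R9 libraries held 405 CPM on day 2, 839 on day 4, 1125 on day 6, 1182 on day 10, 1073 on day 14 and 41.7 on day 20. OKMS R9 libraries held 142, 73.0, 83.2, 98.5, 101 and 4.93 CPM. Prelp was the 1 member lower in OKMS by a log2 difference of at least 1 on all 6 R9 days (down to -3.74 on day 6), which 80 of 14277 genes (0.56%) were. It also was so on the 3 R10 days with both systems, as were Fmod, Dcn, Lum and Mfap5, 5 of 9 members against 3.06% of 15135 genes. Lum reached 1 CPM through the OKS libraries alone, where it was high. On day 18 Lum had 2 reads in OKS and 0 in OKMS, and Dcn had 5 and 0. The count of 5 is therefore a description, from which nothing is read. In R10 Prelp stood at 99.6 CPM in OKMS and 222 in OKS on day 2, 17.7 and 678 on day 6, and 50.4 and 177 on day 18. Before induction the factor-carrying progenitors held 31.0 to 55.6 CPM, within the OKMS range of later days.

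Bgn encodes biglycan, a chondroitin and dermatan sulfate proteoglycan, and its systems were closer. OKMS R9 libraries held 50.9 CPM on day 2, 4.17 on day 4, 12.3 on day 6, 19.7 on day 10, 38.0 on day 14 and 0 on day 20. OKS R9 libraries held 58.8, 40.1, 44.2, 64.7, 66.2 and 10.8 CPM. OKMS was lower by at least 1 on 4 of 6 days, and on day 2 the libraries differed by 1.16 times. In R10 the order of the systems was not the same on every day: Bgn was lower in OKMS on day 6 (7.95 and 29.0 CPM) and higher on day 18 (43.0 and 16.6 CPM).

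Dcn encodes decorin, the related proteoglycan that binds collagen and TGF-beta, and Lum encodes lumican, known for ordering collagen in the cornea. Dcn was flat in OKS R9 libraries at 20.1 to 27.7 CPM from day 2 to day 14, with 2.16 CPM on day 20. In OKMS R9 libraries it stood at 19.2 CPM on day 2 and then at 0 to 5.46 CPM, with no read on days 4 and 20. On day 6 of R10 it was 0.883 CPM in OKMS (1 read) and 32.0 CPM in OKS (75 reads). In R9 Lum was near the floor in both systems: 7 reads in the OKS library of day 2 (9.36 CPM) and at most 1 read in any other induced library. In R10 OKS libraries Lum held 17.9 CPM on day 2, 8.53 on day 6 and 2.56 on day 18, and OKMS libraries at most 0.790. Lum failed the filter in R9, so no difference is given there.

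Mfap5, which encodes a small glycoprotein that binds fibrillin microfibrils, had wide gaps between the systems from day 4 to day 14 of R9. OKS R9 libraries held 82.9 CPM on day 2, 267 on day 4, 376 on day 6, 444 on day 10, 267 on day 14 and 12.9 on day 20. OKMS R9 libraries held 23.7, 10.4, 9.55, 4.22, 9.50 and 12.3 CPM. The OKS level was 39.4 times that of OKMS on day 6, and on day 20 the 2 systems stood within 1.05 times of each other. On day 10 OKMS had 3 reads and OKS 199, too few in OKMS for a firm ratio. R10 had 0.883 CPM in OKMS (1 read) and 145 in OKS (340 reads) on day 6.

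Fbn1 encodes fibrillin-1, the backbone of the microfibril, and in R9 its systems differed by a log2 value of at least 1 on days 10 and 14. On day 2 it stood at 53.1 CPM in OKMS and 52.1 in OKS. OKMS then held 25.0, 24.6, 1.41, 5.28 and 3.69 CPM from day 4 to day 20, and OKS 42.0, 42.8, 17.8, 51.3 and 7.19. The late libraries did not overlap, but OKMS rested on 9 reads in 3 libraries. Fbn1 thus started from equal levels, unlike Prelp or Mfap5, whose systems already differed on day 2. In R10 OKMS held 69.6, 15.9 and 4.45 CPM on days 2, 6 and 18 and OKS 85.1, 64.9 and 11.5.

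Ccdc80 encodes a secreted, matrix-associated protein. OKS R9 libraries held 886, 657, 604, 584, 374 and 23.0 CPM from day 2 to day 20. OKMS R9 libraries held 496, 64.7, 84.6, 50.6, 54.9 and 1.23 CPM. Both systems were highest on day 2 and lowest on day 20, and the OKS level was 7.14 times that of OKMS on day 6. On day 6 of R10 the levels were 46.8 and 653 CPM, and on day 18 they were 14.8 and 41.0.

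Fn1 encodes fibronectin. Its mean log2 difference was the smallest of the members over late R9 days (-0.96), while over days 2 to 6 it (-1.18) was larger than that of Fbn1 (-0.49). OKMS R9 libraries held 487, 121, 138, 155, 272 and 76.3 CPM from day 2 to day 20, and OKS 509, 389, 482, 332, 322 and 226. OKMS was lower on all 6 days, by at least 1 on the log2 scale on 4, yet the late libraries overlapped. In R10 OKMS was lower on day 2 (379 and 555 CPM) and day 6 (97.2 and 664 CPM) and higher on day 18 (162 and 124 CPM).

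Markers of other cell types differed between the same libraries. Fibroblast markers (9 genes) summed to 54.6 to 227 CPM in OKMS and 203 to 286 in OKS on R9 days 2 to 6, and to 25.9 to 99.9 and 121 to 277 on days 10 to 20. Of 7 tested fibroblast markers, 2 (Col3a1 and Pdgfrb) met the rule as lower in OKMS early, against 11.6% of all genes, and 0 late. Col1a2, a chain of type I collagen and also on this list, was at 0 in all 6 libraries of days 2 to 6. It was at most 16.5 CPM in the late ones. Pericyte and smooth muscle markers (3 of 6 genes in the table), nearly all Acta2 (smooth muscle actin), summed to 261 to 469 CPM in OKMS and 591 to 1296 in OKS early, and to 59.1 to 406 and 297 to 2315 late. Neural progenitor markers summed to 356 to 2833 CPM in OKMS and 835 to 5285 in OKS early, and to 17.2 to 149 and 56.0 to 526.5 late. Astrocyte markers (5 genes) summed to 8.35 to 163 and 65.6 to 293 CPM early and to 3.69 to 8.44 and 5.75 to 84.8 late. Median log2 differences early and late were -1.47 and -1.06 for the fibroblast list and -1.69 and -2.06 for the pericyte list. They were -0.90 and -1.62 for the neural progenitor list, and -1.37 and -1.44 for the astrocyte list. The meninges list (2 genes tested) had 1.86 and 0.21. Of its genes Foxd1 met the rule as higher in OKMS early and late, and Foxc1 as lower early. Pluripotency markers summed to 5002 to 8610 CPM in late OKMS and 93.7 to 6794 in late OKS libraries, where the highest OKS sum was that of day 20. Their median log2 difference was 2.76 early and 2.83 late. Fbxo15, Nanog and Zfp42 met the rule as higher in OKMS early, and Fbxo15 alone late. The part of any of these in the member differences was not tested.

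With the transcript TPM summed over each gene, the order in late OKS R9 libraries was led by Fmod. By CPM in the same libraries Prelp (median 1073) stood above Fmod (median 832). The deposited transcripts, some of them partial, had TPM-weighted mean lengths of 1772 bases for Fmod, 2599 for Prelp and 1303 for Fn1. Genes of similar length differed in how TPM compared with CPM. In the OKS R9 library of day 14 Ccdc80 (1656 bases) held 374 CPM and 100 TPM, and Dcn (1632 bases) 22.3 CPM and 27.3 TPM. The order by TPM thus depends on which transcripts were deposited and is not read as a level per length. Median summed TPM was 428 for Fmod, 258 for Prelp and 252 for Fn1. Mfap5 (110) and Ccdc80 (100) followed, then Bgn (34.3), Dcn (21.3), Fbn1 (13.7) and Lum (0). With 3 libraries that spread widely because of day 20 (Fmod 15.7 to 638 TPM, Fn1 132 to 257), the ranges of neighbours in this order other than Fbn1 and Lum overlap. These ranges leave aside that the genes share their libraries. Fmod stood above Prelp in each library (15.7 and 6.27 TPM on day 20). Prelp stood above Fn1 on days 10 and 14 and below it on day 20. In stem cells Fn1 led with a median of 206 TPM in R9 and 105.1 in R10, and Mfap5 held 3.98 and 5.86, while each of the other 7 was at most 0.562 TPM in every library.

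The WT control asks what the medium change gives without factors, and within 2 days it came with higher levels of most members. In R10, 38% of 14688 genes met the descriptive rule (22.2% higher in serum, 15.8% lower), and so did 6 of 9 members, all higher in serum. The contrast was named in the choice of the members. Fmod, Bgn and Mfap5 would not have reached 1 CPM in 2 libraries without the serum arm, so the member count is a description and supports nothing. Fmod stood at 175 and 309 CPM in the 2 R10 serum libraries and at 0.318 and 0.574 in the 2 WT progenitor libraries, which together had 3 reads. The R9 serum library held 163 CPM, and the R9 WT progenitor libraries 0 and 1.34. Fmod was thus close to absent before the change of medium and abundant after it in every library. Bgn stood at 23.9 and 45.5 CPM in serum, against 0 and 1.43 in progenitors. Ccdc80 stood at 188 and 658 CPM against 20.3 and 41.3, and Prelp at 51.3 and 199 against 12.1 and 31.3. Fn1, with 1066 and 830 CPM against 41.3 and 42.5, had the smallest relative spread between the serum libraries. Mfap5 had no read in the WT progenitors (up to 0.452 CPM over both) and 1.57 and 16.5 CPM in serum. Dcn (5.48 and 36.2 CPM against 0.953 and 9.18) and Lum (0.391 and 5.27 against 0.318 and 4.30) overlapped between the groups. Fbn1 differed between the chemistries: in R10 it stood at 14.1 and 35.6 CPM in serum and 13.3 and 35.9 before, while the R9 serum library held 102 CPM, above both R9 WT progenitor libraries (16.05 and 39.7).

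The 2 R10 serum libraries were themselves apart, since replicate 3 was higher than replicate 2 for every member other than Fn1. Fibroblast markers summed to 73.6 and 189 CPM in them and to 21.6 and 44.5 in WT progenitors. Astrocyte markers summed to 1198 and 3069 CPM in them, nearly all Gfap (1056 and 3015 CPM), and to 47.3 to 94.4 in WT progenitors, and 3 of 5 (Aqp4, Gfap, Slc1a2) met the rule as higher in serum. Of 2 tested pericyte and smooth muscle markers, Acta2 was higher (47.0 and 107 CPM, at most 0.287 in WT progenitors) and Cspg4 met the rule as lower. Also lower were 4 of 8 tested neural progenitor markers (Nes, Olig1, Olig2, Ptn). The part of these in the member values was not tested. At day 2 the WT cultures were not below the factor-carrying ones for several members. Fn1 was higher in WT (648 CPM in R9) than in OKMS (487) or OKS (509), and in R10 all WT values exceeded 379 and 555 CPM. Bgn in R9 was 79.2 CPM in WT, 50.9 in OKMS and 58.8 in OKS. Prelp was higher in OKS (405 CPM in R9, 222 in R10) than in WT (184 in R9, 51.3 and 199 in R10).

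Stem cells kept Fn1 and Mfap5 and had next to none of the other 7 genes. In R10, 40.3% of 15415 genes (19.4% higher in stem cells, 20.9% lower) met the rule between 7 stem cell and 4 progenitor libraries. So did the 5 members that passed the filter, again a contrast named in their choice. Prelp, Ccdc80 and Fbn1 reached 1 CPM in 4 libraries through the progenitors alone, and Mfap5 through the stem cells alone. The count of 5 is therefore a description and supports nothing. Fn1 ranged from 155 to 312 CPM in R10 stem cells (median 206) and from 34.3 to 42.5 CPM in progenitors, and the 2 R9 stem cell libraries held 182 and 338 CPM. Mfap5 ranged from 5.18 to 16.4 CPM against 0 to 0.584. Prelp, Ccdc80 and Fbn1 were lower in stem cells by log2 differences of -4.51, -4.70 and -4.33, at most 1.49 CPM in any stem cell library. Fmod, Bgn, Dcn and Lum failed the filter, with at most 0.747 CPM in any stem cell library and no Dcn read at all. Among progenitors Lum ranged from 0.318 to 54.8 CPM and Dcn from 0.953 to 28.6, so their spread there was wide.

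**Figure D2:**
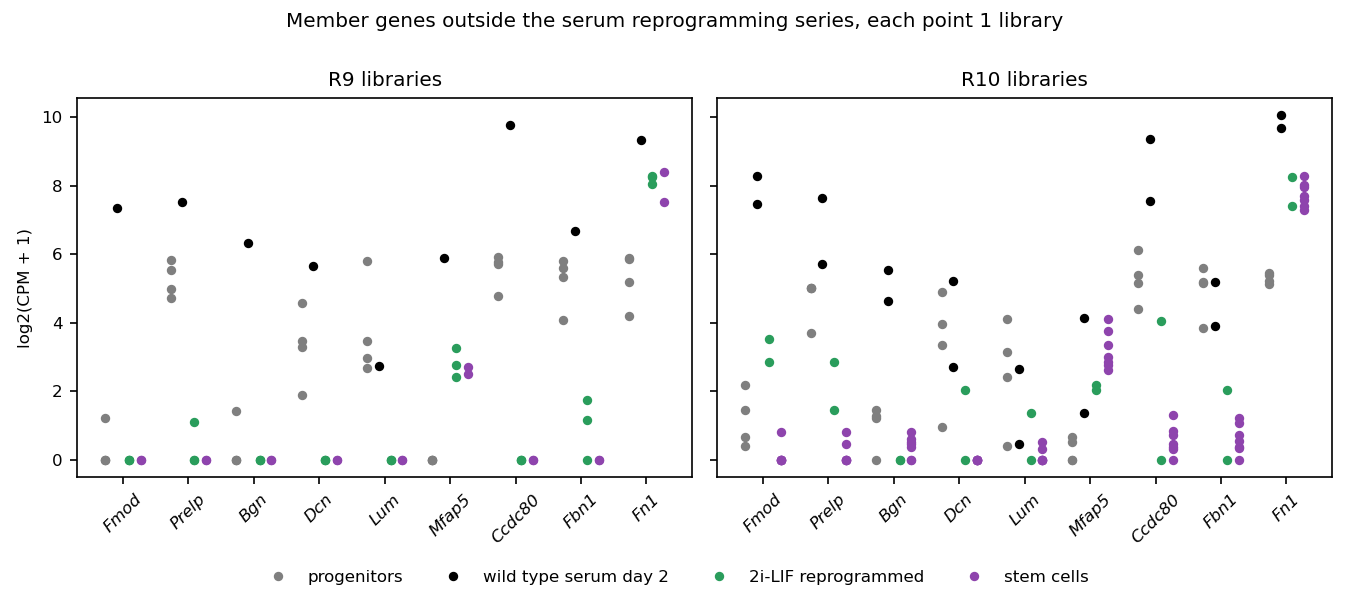
log2(CPM + 1) of the 9 genes (horizontal axis) in progenitors, wild-type cells at day 2 of serum, reprogrammed cells in 2i-LIF and stem cells, with R9 libraries left and R10 libraries right. Each point is 1 library. Black points stand above grey ones for Fmod, Prelp, Bgn, Mfap5, Ccdc80 and Fn1, and purple points lie near 0 for all genes other than Mfap5 and Fn1.

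For each gene the conditions can be put in order within a chemistry. For Fmod and Prelp in R9, OKS from day 2 to day 14 stood above WT serum (163 and 184 CPM), then OKMS, with 2i-LIF and stem cells at 0 CPM for Fmod and 0 to 1.16 for Prelp. Progenitors held 0 to 1.34 CPM of Fmod, while their Prelp (25.4 to 55.6 CPM) lay within the range of the OKMS days. In R10 the order was not the same for either gene. For Fmod, WT serum (175 and 309 CPM) stood above OKS day 2 (148 CPM), and OKS day 18 (303 CPM) lay between the 2 WT libraries. For Prelp, OKS day 18 (177 CPM) lay between the 2 WT libraries (51.3 and 199 CPM), and the lower one was below OKMS day 2 (99.6 CPM). For Bgn and Dcn the single WT serum library was highest (79.2 and 49.5 CPM), above OKS of days 2 to 14 (40.1 to 66.2 and 20.1 to 27.7 CPM). In R10 Dcn was highest in OKS day 2 (44.0 CPM), above both WT serum libraries. For Mfap5 in R9, OKS of days 2 to 14 (82.9 to 444 CPM) stood highest and WT serum held 58.0. OKS of day 20 (12.9 CPM), OKMS, 2i-LIF cells (4.30 to 8.55) and stem cells (4.73 and 5.58) followed with overlapping ranges. In R10 OKS held 32.1 to 145 CPM of Mfap5, while WT serum (1.57 and 16.5 CPM) overlapped stem cells (5.18 to 16.4 CPM). For Ccdc80, WT serum (877 CPM) and OKS of day 2 (886 CPM) stood next to each other, and for Fn1 WT serum was highest of all R9 conditions.

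Late cultures in 2i-LIF held less of most of these transcripts than cultures kept in serum and doxycycline. The 2i-LIF libraries are in none of the contrasts named in the choice of the members. The serum libraries are, so the p-values of this contrast draw in part on values that were in view and are not independent of that choice. It was tested in 5 pairs of the same system, day and chemistry with limma on log2(CPM + 1), adjusted over 14935 genes. Of those genes 12.3% were called (adjusted p under 0.05 and a log2 difference of at least 1), 6.32% lower and 5.95% higher in 2i-LIF. Of the 6 members that passed the filter of 1 CPM in 5 libraries, 5 fell, with a median member difference of -2.59 (all genes -0.03). Prelp, Ccdc80 and Fbn1 reached 1 CPM in 5 libraries through the serum arm alone, where they were high, so this count and median are a description and support nothing. Without the filter limma called the same 5 (adjusted p up to 0.0496), but on the same serum libraries, so this adds no support. The p-values of single members given below carry the same limits.

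Prelp fell most: the serum libraries held 101, 50.4, 4.93, 177 and 41.7 CPM, and their 2i-LIF partners 0, 1.76, 0, 6.26 and 1.16 CPM (in the order OKMS day 14, OKMS day 18, OKMS day 20, OKS day 18 and OKS day 20). Every pair moved the same way. The log2 difference was -4.48 ± 0.49 (SE), with a limma adjusted p of 8.55e-06. Fmod held 32.7, 19.3, 0, 303 and 47.4 CPM in serum and 0, 10.6, 0, 6.26 and 0 in 2i-LIF. It was lower in 4 of 5 pairs, the remaining one having no read on either side, by -3.37 ± 0.72 with a limma adjusted p of 0.00366. Ccdc80 went from 54.9, 14.8, 1.23, 41.0 and 23.0 CPM to 15.6 in OKS day 18 and 0 in the other 4 libraries, lower in 5 of 5 pairs by -3.37 ± 0.62 with a limma adjusted p of 0.00123.

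Fbn1 fell by a smaller amount from low levels: 3.69 to 11.5 CPM in serum and 0 to 3.13 in 2i-LIF, lower in 5 of 5 pairs by -1.82 ± 0.46 (limma adjusted p 0.0128, 30 reads against 5). Mfap5 held 9.50 to 49.9 CPM in serum and 3.13 to 8.55 in 2i-LIF, with no overlap, by -1.53 ± 0.47 (limma adjusted p 0.0347). The Mfap5 call was lost in 7 of 14 alternative settings, with adjusted p up to 0.400, and the Fbn1 call in 2 of 13. Over the R9 pairs alone 2 members and 1166 genes were called, and with DESeq2 3 members and 1242 genes, against 5 and 1832. Bgn, Dcn and Lum failed the filter. Bgn had no read in any 2i-LIF library and 93 reads in serum, where 4 of 5 libraries held it at 10.8 to 43.0 CPM, above the 0.786 CPM that a count of 0 over the 5 libraries allows. Dcn had 2 reads against 11, and Lum 1 against 3.

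Fn1 moved the other way. It stood at 171 to 308 CPM in 2i-LIF and 76.3 to 272 in serum, higher in 2i-LIF in 5 of 5 pairs, and the groups overlapped. The log2 difference of 0.74 ± 0.20 had a limma adjusted p of 0.0181 and stayed under the size threshold of 1. Its 2i-LIF levels lie in the range of the stem cells (155 to 338 CPM).

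**Figure D3:**
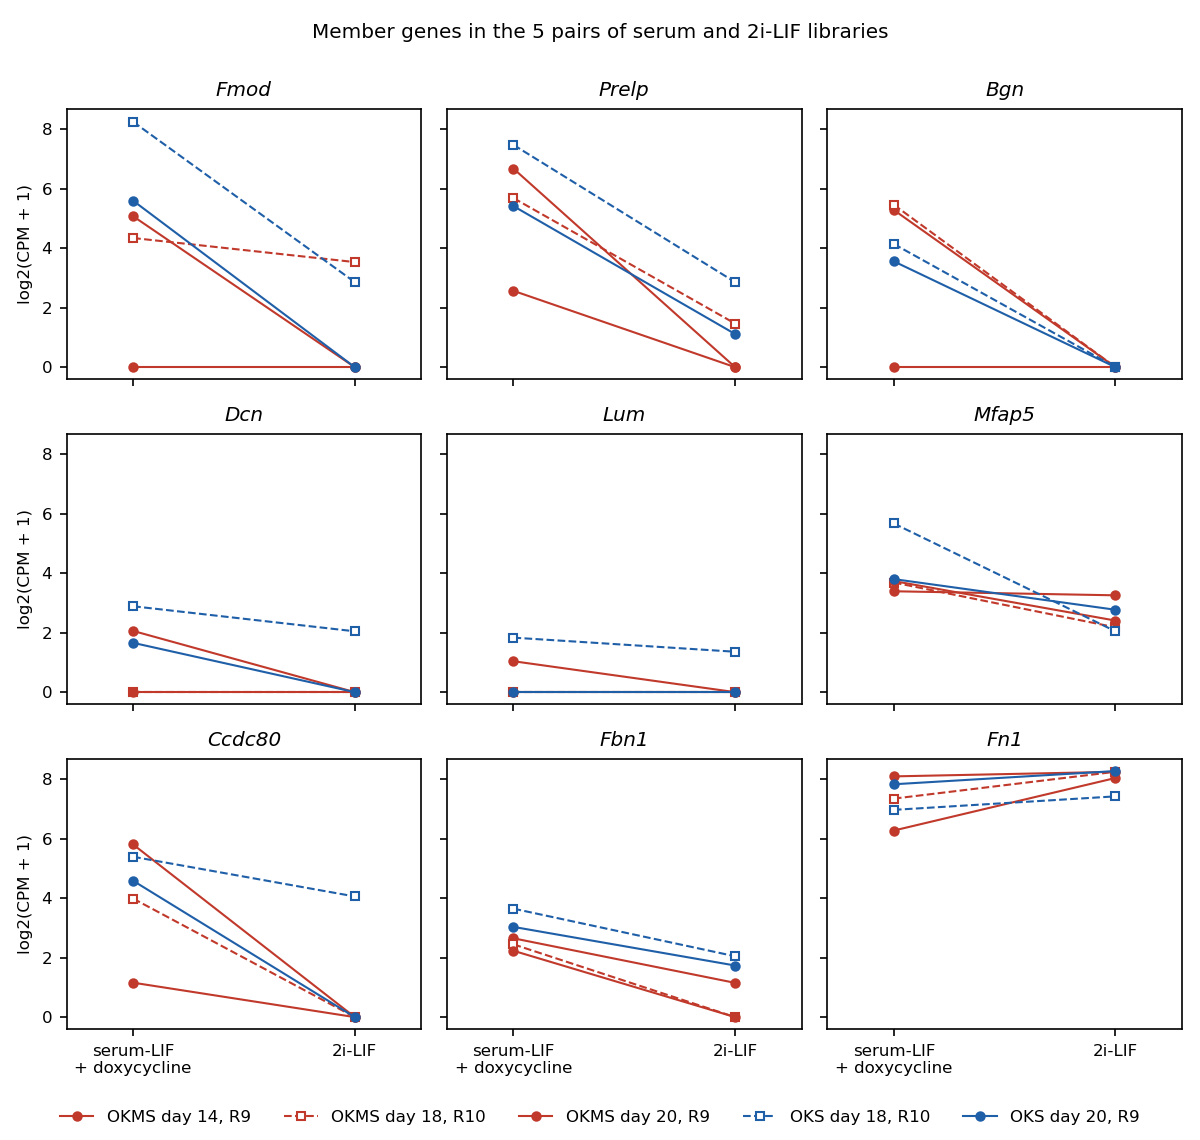
log2(CPM + 1) of the 9 genes in serum-LIF with doxycycline (left of each panel) and in 2i-LIF (right), 1 line per pair of libraries (red OKMS, blue OKS; filled circles R9, open squares R10). The lines of Prelp, Ccdc80 and Fbn1 slope down in all 5 pairs, and those of Fn1 slope up in all 5.

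In the same pairs fibroblast markers summed to 25.2 to 121 CPM in serum and 17.2 to 28.1 in 2i-LIF, where Pdgfra, Col1a2 and Prrx1 were at 0. Acta2 fell from 59.1 to 366 CPM to 0 to 3.13 CPM, by -6.44 ± 0.41 (limma adjusted p 2.58e-08). It passed the filter through the serum arm, where it was high. Pluripotency markers summed to 4873 to 14799 CPM in serum and 9107 to 15039 in 2i-LIF, and 5 of the 6 rose. The part of these in the member differences was not tested. With only 2 R10 pairs, a fit of the difference between chemistries called 0 of 14935 genes, so it says nothing on whether the members differed. The R10 minus R9 estimates were -1.73 for Mfap5, 1.19 for Ccdc80, 0.46 for Fmod, -0.35 for Fbn1, -0.11 for Fn1 and 0.10 for Prelp.

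The same contrast was read for related genes in lists chosen with earlier results of these data known. Among 10 tested matrix proteases and their inhibitors, 7 fell and none rose (median -2.02), the 4 with the largest change being Timp3 (-3.12 ± 0.48, limma adjusted p 0.000247) and Timp2 (-2.26), inhibitors of metalloproteinases, Bmp1 (-2.51), the protease that trims procollagen and several proteoglycan cores, and Mmp2 (-2.24), a gelatinase. Among 11 genes of the TGF-beta pathway 5 fell and none rose (median -1.32). The ligand Tgfb3 was at 0 in all 5 2i-LIF libraries and at 1.23 to 10.4 CPM in serum, so it passed the filter through the serum arm alone. Ccn2, a matricellular target of the pathway, fell by 2.45 on the log2 scale with a limma adjusted p of 7.40e-06, Skil, a feedback inhibitor, by 1.79, and the ligand Tgfb2 by 1.78. The ligand Tgfb1, named here after its value was seen, fell by 1.69, and none of the 3 receptors of the list was called.

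Other microfibril and elastic fibre genes moved in both directions: of 18 tested, 1 rose and 4 fell (median -0.98). Fbln5, an elastin-binding fibulin, rose by a log2 difference of 2.64 from 0 to 8.96 CPM in serum to 12.2 to 31.2 in 2i-LIF. Loxl2, a crosslinking lysyl oxidase, fell by 2.73 on the log2 scale, Ltbp3, a latent TGF-beta binding protein, by 2.56, and Mfap2, the close relative of Mfap5, by 2.00. Of 14 chain-building enzymes 2 fell (median -0.46): B3gnt7, which extends keratan sulfate, by 3.14 on the log2 scale (median 64.0 CPM in serum and 5.82 in 2i-LIF, with no overlap), and Chst12, a chondroitin sulfotransferase, by 1.63. Of 6 tested fibronectin receptors Itgb3 rose (1.64) and Itgb1 and Itgb5 fell (-1.34 and -1.33; list median -0.24). None of the 4 tested other small leucine-rich proteoglycans and relatives was called (median -0.42). Over all genes of the same contrast 6.32% were called lower and 5.95% higher in 2i-LIF. With so few genes in each list, these counts describe the lists and nothing beyond them.

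Later serum days were set against earlier ones in R9, with the system as a term in limma. These are the libraries whose values were in view when the members were chosen, so the member values are a description, with no test. Of 14277 genes 1.63% were called, 0.665% lower and 0.967% higher late, and 1 of 8 members in the fit (Fbn1) was among them, from which nothing is read. That call was lost in 9 of 15 alternative settings. Fbn1 ranged from 24.6 to 53.1 CPM (median 42.4) on days 2 to 6 and from 1.41 to 51.3 (median 6.23) on days 10 to 20, a log2 difference of -2.10 ± 0.48 (SE). It was lower in 5 of 6 late libraries, OKS of day 14 being within the early range. Ccdc80, at 64.7 to 886 CPM early and 1.23 to 584 late, had a difference of -2.47 ± 0.87. The other 6 had differences from -0.54 (Bgn) to -1.27 (Fmod), and the median member difference was -1.08 (all genes -0.08). Without day 20 the differences of Fmod, Prelp and Bgn turned positive (0.43, 0.35 and 0.68), so the direction of these 3 rests on that day.

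Among related genes 3 of 6 tested proteoglycans and relatives fell with time: Ogn (osteoglycin) by 3.48 on the log2 scale, Podn (podocan) by 3.05 and Ecm2 by 3.04, all with limma adjusted p between 0.0416 and 0.0493. Calls this near the threshold do not hold under all settings: with a pseudocount of 0.25 the fit called 11 genes in all, and with a minimum of 5 CPM or no system term 1 gene. Ltbp4 (1.87), the integrin subunit Itga5 (1.68) of the main fibronectin receptor, and Skil (1.66) rose, and Itgb8, which takes part in activating latent TGF-beta, fell by 2.30 on the log2 scale. In the same fit Fabp7, a marker of neural progenitors, fell by 4.80 and Gfap, an astrocyte marker, by 3.95 on the log2 scale. Of 6 pluripotency markers 4 rose (Dppa5a, Esrrb, Tdh and Zfp42), with a list median of 3.74. What part these markers had in the member values was not tested.

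Uninduced factor-carrying progenitors did not differ detectably from WT progenitors in any member. The same progenitor libraries served in contrasts named in the choice of the members, so the p-values here are not independent of that choice. With 4 libraries each and the chemistry as a term, limma called none of 13647 genes (0%), 1148 of which had an unadjusted p under 0.05, among them 2 of the 7 members tested. edgeR called 2 genes and DESeq2 9, none of them a member. Fbn1 stood at 34.5 to 55.2 CPM in factor-carrying and 13.3 to 39.7 CPM in WT progenitors, a log2 difference of 0.92 ± 0.32 with a limma adjusted p of 0.510. Ccdc80 stood at 35.1 to 68.4 against 20.3 to 54.2 CPM (0.63 ± 0.28, limma adjusted p 0.593). Dcn and Lum changed direction with chemistry: the log2 difference was -1.24 in R9 alone and 2.26 in R10 alone for Dcn, and -1.31 and 2.23 for Lum, against 0.51 and 0.46 over both, though the interaction with chemistry did not pass the test (limma adjusted p 0.392 and 0.483).

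The transcript table adds which isoforms carried these levels, a readout the choice of members did not use. Fmod was carried by 2 main transcripts with 3 exons. One of 2759 bases matched the annotated splicing and held 40.9% of Fmod TPM in early OKS R9 libraries, and one of 608 bases, with splicing not in the catalogue, held 48.1%. In early and late OKMS R9 libraries the 2759-base transcript held 72.7% in each and the 608-base transcript 0, and in WT serum of R9 they held 37.4% and 54.3%. In R9 the shorter form was thus listed in OKS and WT serum and not in OKMS. There the gene had 167 Fmod reads early and 90 late, but the shares rest on transcript TPM, which was low. Summed Fmod TPM in OKMS R9 libraries was 3.21 to 34.8 early (30.0 to 141 CPM) and 0 to 18.4 late. In early OKS R9 libraries it was 50.2 to 374 TPM. The absence of the shorter form in OKMS is limited by this low TPM. Shares of the R10 OKMS and OKS libraries were not computed. A share of TPM gives a short transcript more weight than its share of reads. No test was run on this share, since it was picked after its values were seen.

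Other members had their reads in partial transcripts. For Fn1, 88.9% of TPM lay in transcripts of at most 3 exons and 93.4% in incomplete matches to annotated splicing, led by an 827-base transcript of 2 exons with 69.0%, while the longest had 10488 bases and 46 exons. For Ccdc80 74.5% of TPM were incomplete matches, and for Fbn1, whose longest deposited transcript had 57 exons, 75.7% had splicing not in the catalogue. Bgn (82.9%), Dcn (88.4%) and Lum (100%) lay mostly in full matches. Over 200 bases downstream of the GENCODE start began 92.9% of Fn1 TPM, 99.6% of Ccdc80 TPM and 100% of Fbn1 TPM, so exon shares use the few transcripts that reach upstream.

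Exon inclusion was computed as the TPM of transcripts that hold an exon, as a share of that TPM plus the TPM of transcripts that join its neighbours directly. The planned test compared 7 stem cell with 8 induced serum libraries of R10, with at least 5 informative TPM in a library and 4 libraries per arm. One exon could be tested and none was called. The Mfap5 exon of 24 bases was included at 58.5% ± 26.6 (SD, n = 5) in stem cells and 80.9% ± 24.6 (SD, n = 6) in serum libraries, a difference of -22.4 points with an exact two-sided permutation p of 0.186. Single libraries ran from 30.1% to 100% in stem cells and from 42.5% to 100% in serum, so the groups overlapped throughout.

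With the planned lower minimum of 1 informative TPM, 5 exons could be tested and the 2 Fn1 exons passed. EIIIB was included at 74.5% to 94.6% (median 84.3%) in 7 stem cell libraries and at 27.9% to 67.0% (median 40.7%) in 8 serum libraries. The groups did not overlap, and the difference was 38.6 points (exact two-sided permutation p 0.000311, adjusted over the 5 exons 0.00155). EIIIA was included at 66.6% to 86.8% (median 81.8%) in stem cells and at 32.0% to 88.3% (median 58.4%) in serum, with overlap, a difference of 24.2 points (exact two-sided permutation p 0.00901, adjusted 0.0225). These rest on 2.44 to 6.08 informative TPM in stem cells, most of them under the main minimum, and on 2.05 to 32.5 in serum libraries. The 2 serum libraries of day 18 held only 2.09 to 3.18. Among the day 18 libraries and the stem cell libraries with an n number alone, EIIIB was 74.5% to 94.6% in 6 stem cell and 56.0% and 58.7% in 2 serum libraries of day 18, and EIIIA 77.1% to 86.8% against 58.0% and 67.1%. In R9 no exon could be tested. There EIIIB was 92.9% and 100% in stem cells and 17.98% to 100% in 11 serum libraries, and EIIIA 39.2% and 83.4% against 12.3% to 100%, so R9 did not separate the groups.

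The 2i-LIF pairs give the same readout between media. The serum library of OKMS day 20 held under 1 informative TPM for both exons (0.962 and 0.678), so that pair is left out. In the other 4 pairs EIIIA inclusion was higher in 2i-LIF in each, by 20.3 to 62.1 points, and EIIIB in each, by 2.13 to 41.3 points. Over all 5 2i-LIF libraries EIIIA ran from 78.2% to 92.7% and EIIIB from 69.4% to 100%, on 1.87 to 7.77 informative TPM. WT cells at day 2 of serum held EIIIA at 32.6% to 52.1% and EIIIB at 42.8% to 54.0% with 10.4 to 20.4 informative TPM, the best covered values of the 2 exons outside induced cells. These pairs were counted, not tested.

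**Figure D4:**
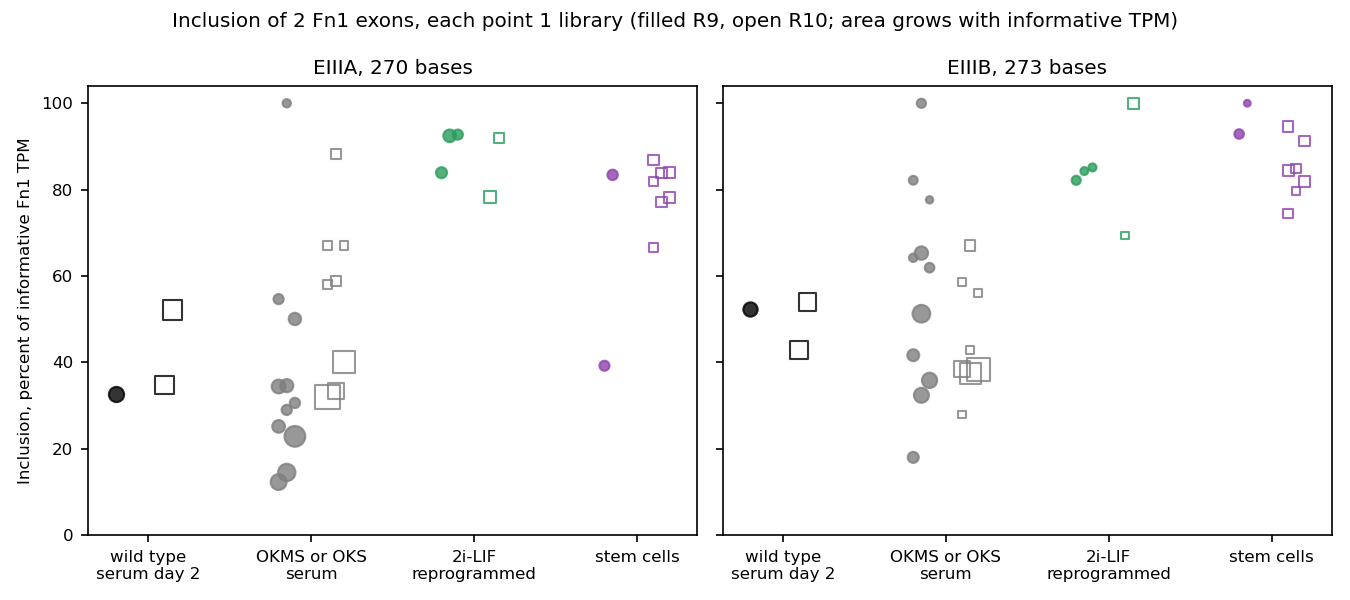
Inclusion of the Fn1 exons EIIIA (left) and EIIIB (right) as a percent of informative Fn1 TPM (vertical axis) in wild-type serum, OKMS or OKS serum, 2i-LIF and stem cell libraries (horizontal axis), for libraries with at least 1 informative TPM. Filled circles are R9 and open squares R10, and a larger point rests on more TPM. Open squares of EIIIB lie higher in stem cells (74.5% to 94.6%) than in OKMS or OKS serum (27.9% to 67.0%), and filled circles spread widely.

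The members did not share 1 pattern. Pearson correlations of log2(CPM + 1) over libraries are given as a description, since the libraries share cell lines and days. Over the 22 R9 and 23 R10 libraries, Prelp and Ccdc80 had 0.96 and 0.94, and Fmod and Prelp 0.88 and 0.87. Prelp and Fn1 had only 0.21 and 0.17, and Fmod and Lum -0.11 and 0.40. Fmod and Prelp are neighbours 107.151 kb apart on chromosome 1 with 2 non-coding genes between them, and Dcn and Lum are neighbours 47.337 kb apart on chromosome 10. Dcn and Lum had 0.53 in R9 and 0.89 in R10. In R9 Lum was highest in a progenitor library (54.8 CPM) and Dcn in WT serum (49.5 CPM), and in R10 both were highest in OKS day 2.

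Of 11490 genes with a mean of at least 5 CPM in R9, the 2 most like each member in R9 are named here. Fmod was closest to C1ra, a complement protease (0.99 in R9, 0.89 in R10), and Plscr2, a phospholipid scramblase (0.97 and 0.91). Prelp was closest to Tgfb1i1, a focal adhesion protein (0.98 and 0.96), and Fstl1, a secreted glycoprotein (0.97 and 0.85). Bgn was closest to Pdlim2, a cytoskeletal adaptor (0.96 and 0.92), and Myl9, a myosin light chain (0.96 and 0.86). Dcn was closest to Hoxaas2 (0.95 and 0.80), an antisense gene whose reads cannot be told apart from those of the opposite strand here, and Fam174a (0.94 and 0.76).

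Ccdc80 was closest to Timp2, the metalloproteinase inhibitor (0.99 and 0.96), and Mir100hg, a microRNA host gene (0.99 and 0.94). Mfap5 was closest to Epb41l2, a membrane skeleton protein (0.95 and 0.84), and Ctnna1, alpha-catenin (0.95 and 0.88). Fbn1 was closest to Cdh2, N-cadherin (0.94 and 0.92), and Tuba1a, a tubulin (0.94 and 0.91), and Lum to Grm3, a glutamate receptor (0.90 and 0.67), and Ednrb, an endothelin receptor (0.87 and 0.67). Fn1 was closest to Myof, the membrane repair protein myoferlin (0.91 and 0.72), and Mvp, the major vault protein (0.90 and 0.88).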

How the data were processed

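The deposited gene table holds CPM made by the authors, and the deposited transcript table holds TPM made by the authors for 45 libraries. The submitters' processing notes name minimap2 2.24-r1122 and mm10; other tools and strand use are not given in the sources used here. Columns of 13 other libraries were not used. Of the gene CPM above 0, 100% came out as whole reads within 0.02 reads, so reads per gene were recovered.

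The members and all lists were chosen with earlier results of these data known. Genes named besides the 9 members are, per list, up to 4 called genes with the largest absolute difference, and per member the 2 genes with the highest R9 correlation; markers are named for the cell types. Contrasts used in that choice were described with a log2 difference of at least 1 and no overlap; late against early serum days, planned as a test, is described for the members because it uses the same libraries. Others were tested with limma 3.58.1 (R 4.3.3, trend) on log2(CPM + 1), filter 1 CPM in as many libraries as the smaller arm, Benjamini-Hochberg over all genes, two-sided. edgeR 4.0.16 and DESeq2 1.42.0 on recovered reads were alternatives, as were another pseudocount (0.25), other filters, median centring, quantile normalization and leaving out libraries. Exon shares were tested by exact permutation (scipy 1.17.1), adjusted over the exons. Scripts were tested on simulated data. Same-system, same-day serum and 2i-LIF libraries were paired by their labels.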

Additional observations from a re-analysis of the deposited data

Results flagged for a closer look

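Each gene was screened for a library far from the others in groups of 4 to 10 libraries, with Dixon's criterion, and 13 of 60 combinations of gene and group passed. Chance alone flags about 1 in 20 only for normal values of 1 population. These groups pool cell lines, systems or days, and the 2i-LIF libraries and their serum partners also pool chemistries. No excess is therefore read from the count. Groups at or near 0 reach the criterion with 1 or 2 reads.

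Lum in R9 progenitors had 54.8 CPM (41 reads) in WT replicate 1, with 10.1 CPM next. Fmod had 1.34 CPM (1 read) in the same library and 0 in the other 3, and Bgn 1.69 CPM (1 read) in the OKS progenitors and 0 in the others. In R10 progenitors Prelp was lowest in WT replicate 2, at 12.1 CPM with 31.2 next. In R10 stem cells Fmod had 0.747 CPM (2 reads) in the R1 library that stands apart from the other R1 libraries.

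The OKS day 18 library in 2i-LIF stood apart as the highest of the 5 2i-LIF libraries for 4 members: Prelp 6.26 CPM, Dcn 3.13 (2 reads), Lum 1.56 (1 read) and Ccdc80 15.6 (10 reads). It was also the highest for Fbn1 (3.13 CPM, 2.33 next), within the criterion. Its serum partner stood apart among the 5 serum libraries for Fmod (303 CPM, 47.4 next) and Mfap5 (49.9 CPM, 12.9 next), and was also the highest, within the criterion, for Prelp, Dcn, Lum and Fbn1. In R9 serum libraries Lum was highest in OKS day 2 (9.36 CPM, 7 reads), and Fbn1 in OKS day 14 among the late days (51.3 CPM, 17.8 next).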

How the results depend on the processing

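Over single member values, 577 alternatives were labelled unchanged, by a rule that depended on the contrast. For tested contrasts and the exon it was unchanged direction and call: 13 changed direction, 18 lost and 2 gained a call. For described contrasts it was a shift under 1 SD, with no check of the call of single members, and 20 moved further. Calls gained or lost there show only in the counts below. Low reads limit Lum, Dcn and late Fbn1.

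For OKMS against OKS on days 10 to 20 (2 members, 938 genes), median centring and quantile normalization each left 1 member, a minimum of 5 CPM left 473 genes, and leaving out a day gave 2 to 7 members and 1756 to 5621 genes. On days 2 to 6 (3247 genes), leaving out a day gave 4014 to 5498 genes (most without day 2). For 2i-LIF (5 members, 1832 genes), DESeq2 called 3 members, the R9 pairs 2 members and 1166 genes, and leaving out a pair 1210 (without OKS day 20) to 1908 genes.

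For late against early days (1 member, 233 genes), a pseudocount of 0.25 gave 0 members and 11 genes, a minimum of 5 CPM 0 and 1, no system term 0 and 1, R10 2 and 1096, edgeR 0 members, DESeq2 936 genes, and leaving out a day 0 to 2 members and 0 to 2325 genes (most without day 10). There, leaving out a day gave -2.37 to 0.43 for Fmod, -1.87 to 0.35 for Prelp and -1.27 to 0.68 for Bgn, positive without day 20 only, and in R10 Fmod, Bgn and Mfap5 turned to 0.15, 1.26 and 0.46. For uninduced progenitors (0 genes), edgeR called 2 genes, DESeq2 9, R10 alone 212 and leaving out 1 library up to 37 (without R9 WT replicate 2). Dcn turned to -0.03 without the R10 OKS library, -0.32 without R10 WT replicate 2 and -1.24 in R9 alone (up to 1.18 without another library; 2.26 in R10 alone), Lum to -0.08, -0.29 and -1.31 (up to 1.39; 2.23 in R10 alone), and Fn1 to -0.24 in R10 alone. The exon minimum of 1 TPM called 2 exons in place of 0; 10 TPM or R9 left no exon to test. Beyond settings that drop libraries or genes, the cause was not tested.

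With the WT replicate number as a replicate block, the rule was another one. Both same-numbered log2 differences had to be at least 1 in the same direction, with no condition on overlap. It called 7 members and 4404 genes, not directly comparable with 6 and 5586. The added member was Dcn (1.73 and 1.87), whose groups overlap. Same-numbered libraries of the 2 WT groups had deviations correlated at 0.474, but with 2 pairs and no label of a shared batch they share only a number. Without the pairing of 2i-LIF and serum libraries (no replicate block), 5 members and 1805 genes were called, in place of 5 and 1832.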
